A study of Rattus norvegicus with 8 samples.

Results

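The genes described here are the ephrins, the Eph receptors, the netrins and their receptors, and the Slits with their Robo receptors. They were taken as every non-control probe whose gene name in the array files began with Epha, Ephb, Efna, Efnb, Unc5 or Robo, was Ntn or Slit followed by a digit, or was Dcc, Neo1, Ntng1 or Ntng2. That rule found 74 probes of 43 genes among 45598 probes, which carry 36174 gene names. Unc50 and Unc5cl were found through their letters only: Unc50 is not a netrin receptor, and Unc5cl is not a known one. RNA of primary hippocampal neurons was measured on 8 one-colour arrays, 4 of neurons given an shRNA against rat SIRT6, called Sirt6 shRNA here, and 4 of neurons given a scrambled control shRNA. All neurons came from Wistar rats at postnatal day 0-1, received a lentiviral vector with the shRNA on day 3 (multiplicity of infection 6), and were cultured for 7 more days, to 10 days in vitro. Both groups therefore carry a lentivirus. The labels name 1 shRNA per group, give no promoter for the vectors, and do not state whether the 4 arrays per group stand for separate cultures. Each p-value therefore reflects the spread among these arrays alone, which may be technical spread.

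Eph receptors are receptor tyrosine kinases, and their ephrin ligands sit on the surface of the neighbouring cell. A-type ephrins are held by a lipid anchor and B-type ephrins cross the membrane. Contact can send a signal into either cell, and in the hippocampus these proteins are known for guiding axons and for shaping dendritic spines. Netrins are secreted cues that draw axons in through Dcc and its relative neogenin, or repel them through Dcc together with the Unc5 receptors. Slits are secreted cues that repel axons through Robo receptors and also affect their branching.

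Sirt6, which encodes the NAD-dependent deacetylase that the shRNA targets, had 147, 150, 142 and 138% signal on the Sirt6 shRNA arrays, against 427, 412, 405 and 418% signal on the scrambled shRNA arrays. A value in % signal is the spot signal in percent of the 75th percentile of the same array. It cannot be set against the % signal of another probe, since probes bind with different strength. Sirt6 had a log2 fold change, Sirt6 shRNA over scrambled shRNA, of -1.53 ± 0.04 (SE, n = 4 each, limma adjusted p = 5.55e-06), the smallest p of the 22593 genes tested. The 8 arrays shared 1 slide and 1 scan, with the Sirt6 shRNA arrays in 1 slide row and the scrambled shRNA arrays in the other, so row and treatment cannot be told apart. Between 60.4 and 65.3% of the probes of an array were well above background, no spot was saturated, and the number of arrays limits the precision.

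Markers of other cell types were measured beside those of neurons. Summed over the markers measured, neuronal genes (10 of 10 measured, 3 called higher and 2 called lower) ran from 15070 to 16950% signal on Sirt6 shRNA arrays and from 16530 to 16730% signal on scrambled shRNA arrays. Astrocyte markers (10 of 10, 1 higher and 6 lower) summed to 17550 to 19210% signal against 24690 to 27370% signal. Oligodendrocyte lineage markers (10 of 10, 1 higher and 3 lower) summed to 4294 to 4485% signal with Sirt6 shRNA and 4819 to 5333% signal with the scrambled control. For microglia (9 of 9, 0 higher and 3 lower) the sums were 1109 to 2124% signal and 1719 to 2344% signal. Mural cell markers (5 of 8, 4 higher and 0 lower) summed to 1095 to 1338% signal, against 321 to 393.9% signal. Fibroblast and meningeal markers (7 of 8, 4 higher and 1 lower) summed to 1944 to 2199% signal, against 1615 to 1871% signal. Their mean log2 signal on the same scale overlapped, at 0.18 to 0.35 with Sirt6 shRNA and 0.22 to 0.36 with the scrambled control. The 1 called lower, Fmod, averaged 26.7% signal with Sirt6 shRNA and 102.7% signal with the scrambled control. Endothelial markers (5 of 9, 1 higher and 0 lower) summed to 422.3 to 502.1% signal, against 422.2 to 477.4% signal. The brightest, Vwf, averaged 363.9% signal with Sirt6 shRNA and 385.9% signal with the scrambled control and was not called, while Kdr was called higher (0.41). Pecam1 gave -0.46, Cdh5 0.23 and Tek 0.41, and none of these was called. Cldn5, Flt1, Tie1, Emcn, Rgs5, Kcnj8, Des and Lum had no probe above the filter. Such a sum is set mainly by its brightest probes. Of all genes tested, 30.4% were called. In such bulk RNA, fewer cells of a type and less RNA per cell cannot be told apart, and the part of these cell types in the results below was not tested.

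Of the 43 genes, 37 entered the test, with a probe well above background on 4 or more of the 8 arrays. Of these, 10 were called higher and 4 lower in Sirt6 shRNA neurons at an adjusted p under 0.05, which is 14 of 37 or 37.8%. Among all genes tested, 30.4% were called, 15.6% higher and 14.8% lower. The median log2 fold change of the 37 genes was 0.03, against 0.02 for all genes, and their median absolute log2 fold change was 0.142, against 0.143. The called members alone had a median absolute log2 fold change of 0.282, against 0.301 for all called genes. Of the 37 genes, 1, Dcc, was called with a change of 1.5-fold or more, which is 2.7%, against 4.43% of all genes. The groups did not overlap for 19 of the 37 genes, 12 with all Sirt6 shRNA arrays above and 7 with all below, which is 51.4%, against 33.4% of all genes. Without the 2 genes matched by letters only, 13 of 36 were called, 10 higher and 3 lower.

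**Figure D1:**
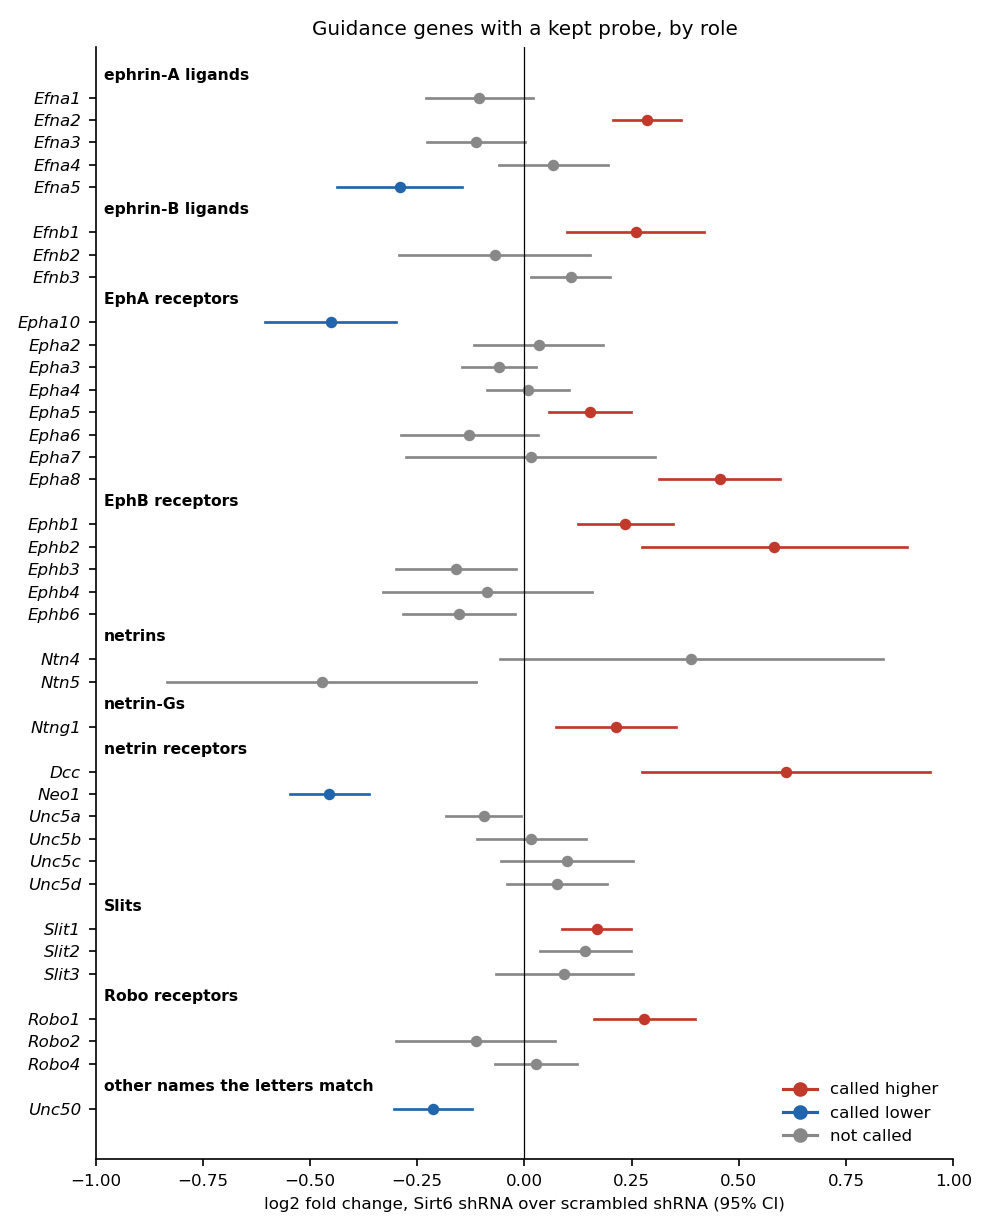
Log2 fold change with its 95% confidence interval for the 37 genes measured, one row per gene, grouped by role. Points right of 0 are higher with Sirt6 shRNA. The 10 genes called higher and 4 called lower stand among 23 that were not called, and most groups hold genes on both sides of 0.

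The number of calls on each side depended on how the arrays were scaled. No called member changed sign under the alternatives, on its brightest probe or with the mean of its probes. Fitting the replicate number as a block, or changing the filter, left the log2 fold change of each called member as it was. Scaled on the array median in place of the 75th percentile, 6 members were called higher and 6 lower, and 35.2% of all called genes were higher, against 51.3% in the main scaling. Scaled on the 7 E1A spike-in probes, 6 were called higher and 1 lower, and 64% of all called genes were higher. Under 18 alternative settings, 4 of the 14 called genes kept their call in each, namely Efna2, Epha8, Neo1 and Robo1. Robo1 did so narrowly with spike-in scaling (limma adjusted p = 0.0497). Efna2 and Epha8 had 1 kept probe each, so the mean of a gene's probes could not change them. The fit over every kept probe was read on the brightest probe only. Efna5, Epha10, Ephb2, Dcc and Unc50 each lost their call in 1 setting. Normexp background correction with an offset of 50, which pulls the log2 fold change of dim probes toward 0, moved Efna2 to 0.14, Efnb1 to 0.15, Epha10 to -0.27, Ephb2 to 0.08, Ntng1 to 0.11 and Dcc to 0.36. Of these, Efnb1 (adjusted p = 0.0539) and Ephb2 (adjusted p = 0.118) were no longer called.

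The promoters of the 4 genes that kept their call in every setting are shown. Each is the RefSeq sequence of build GRCr8 from 250 bases before to 50 bases after the annotated start, printed 5′ to 3′ on the gene's strand. Capitals mark matches, on either strand, to GGGCGG, the core of an Sp1 site, or to CACGTG, an E-box. Where matches overlap, the capitals run on.
Efna2: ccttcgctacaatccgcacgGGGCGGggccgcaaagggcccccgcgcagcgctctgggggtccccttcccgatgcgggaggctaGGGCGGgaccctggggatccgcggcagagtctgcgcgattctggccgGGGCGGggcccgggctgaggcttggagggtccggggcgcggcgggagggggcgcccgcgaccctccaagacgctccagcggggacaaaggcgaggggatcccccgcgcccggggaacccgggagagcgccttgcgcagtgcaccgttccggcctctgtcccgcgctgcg
Epha8: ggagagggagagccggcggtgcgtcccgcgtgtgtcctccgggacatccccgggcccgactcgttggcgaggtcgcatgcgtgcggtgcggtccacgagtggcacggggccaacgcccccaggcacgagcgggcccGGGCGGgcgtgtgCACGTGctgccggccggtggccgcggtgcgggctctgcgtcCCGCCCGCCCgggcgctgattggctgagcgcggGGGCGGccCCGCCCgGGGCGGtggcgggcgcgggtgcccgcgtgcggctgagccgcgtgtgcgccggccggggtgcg
Neo1: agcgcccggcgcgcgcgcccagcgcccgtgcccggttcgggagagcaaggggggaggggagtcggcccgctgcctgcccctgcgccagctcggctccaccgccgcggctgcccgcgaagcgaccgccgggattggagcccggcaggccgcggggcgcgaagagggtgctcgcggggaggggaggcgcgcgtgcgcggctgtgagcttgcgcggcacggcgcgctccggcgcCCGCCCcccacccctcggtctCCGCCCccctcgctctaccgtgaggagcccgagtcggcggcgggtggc
Robo1: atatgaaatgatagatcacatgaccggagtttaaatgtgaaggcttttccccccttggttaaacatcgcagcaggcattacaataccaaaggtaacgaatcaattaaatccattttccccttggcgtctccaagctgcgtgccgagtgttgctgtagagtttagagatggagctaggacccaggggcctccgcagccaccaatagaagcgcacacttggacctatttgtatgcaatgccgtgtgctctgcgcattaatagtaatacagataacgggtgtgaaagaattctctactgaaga
Efna2 lies at chr7:10177670-10177969 on the minus strand, Epha8 at chr5:154476917-154477216 on the minus strand, Neo1 at chr8:68322103-68322402 on the minus strand, and Robo1 at chr11:24067706-24068005 on the plus strand.

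The Epha8 window held 51 CG dinucleotides, the Neo1 window 50 and the Efna2 window 39, at percentiles 99.5, 99.4 and 96.6 of the 27457 promoters in the table. The Robo1 window held 11, at percentile 60.2, where the median of all was 7. GGGCGG was matched 6 times in Epha8, 3 times in Efna2, 2 times in Neo1 and 0 times in Robo1, and CACGTG 1 time, in Epha8. A further 3 motifs were searched on both strands: TGACG, the core of a cAMP response element, TGANTCA, the AP-1 site, and TATAAA, the TATA box. None of these 3 was matched in the 4 windows. Promoters were found for 36 of the 43 genes, 31 of them measured. GGGCGG was matched in 17 of those 31, against 34.9% of all promoters, TGACG in 5, against 22%, CACGTG in 2, against 6.65%, TGANTCA in 1, against 7.33%, and TATAAA in 0, against 14.3%. Among the 13 called genes with a promoter, 4 held GGGCGG, 3 TGACG, 2 CACGTG, 1 TGANTCA and 0 TATAAA. A match is a description of letters and not of a bound site.

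Among the A-type ephrins, 1 of 5 measured rose and 1 fell. Efna2, a lipid-anchored ligand of EphA receptors, had 21.6, 21.4, 21.8 and 21.5% signal in Sirt6 shRNA neurons, against 17.1, 17.9, 18.2 and 17.5% signal in scrambled shRNA neurons. Its Sirt6 shRNA arrays all lay above the scrambled ones, with an SD of 0.159% signal (n = 4), and the log2 fold change was 0.29 ± 0.03 (SE, limma adjusted p = 0.000723). Efna5, the ephrin-A5 known for repelling retinal and cortical axons, had 57.4, 54.2, 52.3 and 56.9% signal with Sirt6 shRNA and 72.9, 64.8, 61.8 and 71.1% signal with the scrambled control. All Sirt6 shRNA values lay below the scrambled ones, at a log2 fold change of -0.29 ± 0.06 (SE, limma adjusted p = 0.0106). A second, dimmer Efna5 probe was called lower too, at -0.65 ± 0.13 (SE, limma adjusted p = 0.00793). It averaged 3.03% signal with Sirt6 shRNA, where 3 of 4 arrays were well above background, and 4.69% signal with the scrambled control. A further Efna5 probe was well above background on 0 of 4 arrays in each group and was not kept. Under spike-in scaling the brightest Efna5 probe was not called (-0.22, adjusted p = 0.185), and the mean of both kept probes gave -0.47. Efna1, Efna3 and Efna4 were not called, with log2 fold changes between -0.11 and 0.07. By the array's rn4 coordinates the probes of these 3 genes lie together on chromosome 2, with Efna3 and Efna4 27.2 kb and Efna1 and Efna3 50.8 kb apart.

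Efnb1, a transmembrane ligand of EphB receptors, was the 1 B-type ephrin of 3 to rise. It had 48.5, 51.0, 50.5 and 47.7% signal in Sirt6 shRNA neurons and 45.6, 43.5, 37.0 and 39.6% signal in scrambled shRNA neurons, which did not overlap (log2 fold change 0.26 ± 0.07, SE, limma adjusted p = 0.0251). That call was near the threshold. It was lost without Sirt6 shRNA replicate 1, 2 or 3 (adjusted p = 0.0501, 0.0564 and 0.0637), without scrambled shRNA replicate 4 (0.0649), with median centring (0.0621) and with no filter (0.0556). Efnb3, a B-type ephrin known from the brain midline, had 4273, 4146, 4216 and 4409% signal with Sirt6 shRNA, against 4126, 3937, 3792 and 3965% signal with the scrambled control. These groups did not overlap either, but Efnb3 was not called (0.11 ± 0.04, SE, limma adjusted p = 0.0754). It was called with normexp (0.13, adjusted p = 0.0150) and with quantile normalization (0.14, adjusted p = 0.0244). A dimmer second probe gave -0.21, not called, and the mean of both probes gave -0.05. Efnb2, a ligand of EphB receptors and EphA4, had overlapping groups and was not called (-0.07).

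**Figure D2:**
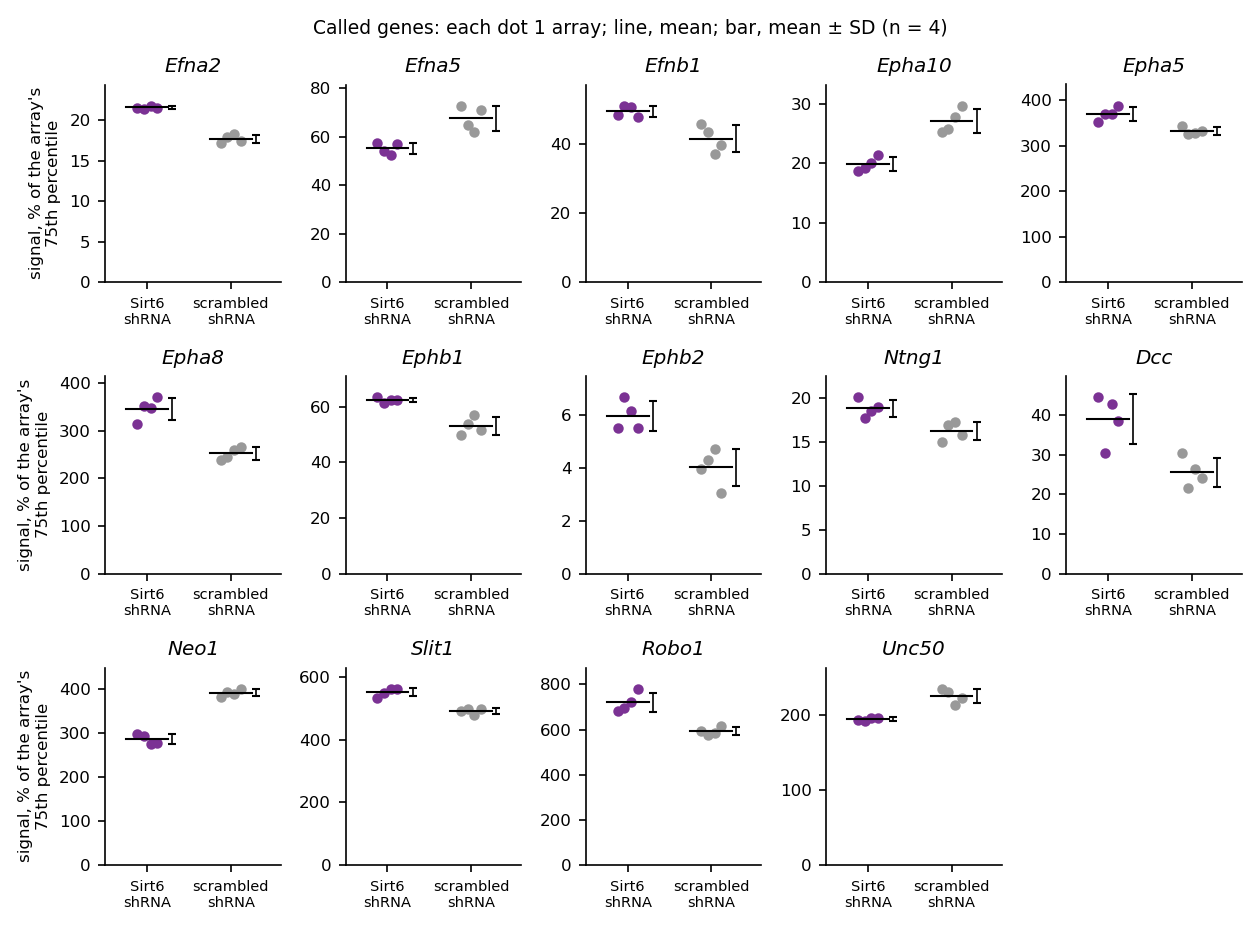
Signal in percent of the 75th percentile of the same array for the 14 called genes, with each dot 1 array, Sirt6 shRNA left and scrambled shRNA right, the line the mean and the bar the mean ± SD (n = 4). The groups are apart in each panel, by the least for Dcc, where the lowest Sirt6 shRNA array had 30.36 and the highest scrambled array 30.33.

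Of the EphA receptors, 8 of 9 were measured, 2 rose, 1 fell and 5 were not called. Epha8, a receptor for A-type ephrins, had 315, 351, 347 and 370% signal in Sirt6 shRNA neurons, against 238, 245, 260 and 266% signal in scrambled shRNA neurons. All Sirt6 shRNA arrays were above all scrambled ones, and the log2 fold change of 0.45 ± 0.06 (SE, limma adjusted p = 0.00124) corresponds to 1.37-fold. Epha5, a receptor found on hippocampal axons and dendrites, had 352, 371, 369 and 388% signal with Sirt6 shRNA and 344, 326, 328 and 334% signal with the scrambled control. The gap between its groups was small (0.15 ± 0.04, SE, limma adjusted p = 0.0262). Its call was lost under median centring (0.11, adjusted p = 0.189), under spike-in scaling (0.23, adjusted p = 0.119) and with no filter (adjusted p = 0.0611). It was also lost without Sirt6 shRNA replicate 2, 3 or 4 (adjusted p = 0.0507, 0.0611 and 0.0575) and without scrambled shRNA replicate 2, 3 or 4 (0.0712, 0.0607 and 0.0571). A second Epha5 probe of nearly the same brightness was called higher at 0.32 (adjusted p = 0.00285), while the remaining Epha5 probes gave 0.03 and 0.06 and were not called.

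Epha10, the EphA receptor whose kinase domain is held to be inactive, had 18.6, 19.1, 20.1 and 21.3% signal in Sirt6 shRNA neurons and 25.2, 25.8, 27.8 and 29.7% signal in scrambled shRNA neurons. Every Sirt6 shRNA value lay below every scrambled value (log2 fold change -0.45 ± 0.07, SE, limma adjusted p = 0.00186). Under spike-in scaling it was not called (-0.38, adjusted p = 0.0618), and its second probe gave -0.17 (adjusted p = 0.134). Epha3, a receptor for ephrin-A5, was called only on its dimmer probe, which averaged 36.5% signal with Sirt6 shRNA and 45.1% signal with the scrambled control (-0.30, adjusted p = 0.0240), while its brightest probe gave -0.06. Epha4, which binds both classes of ephrin, gave 0.01 and -0.08 on its 2 probes. Epha7 had 4 kept probes from -0.23 to 0.78, none called. The probe at 0.78 reached an adjusted p of 0.0531, and the probe at 0.68 ranged from 6.81 to 28.9% signal within the Sirt6 shRNA group, against 5.63 to 9.09% signal in the scrambled group. Epha2 and Epha6 were not called (0.03 and -0.13), and Epha1 had no probe above the filter.

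Of the 5 EphB receptors, all measured, 2 rose and 3 were not called. Ephb1, a receptor of B-type ephrins, had 63.4, 61.4, 62.4 and 62.3% signal in Sirt6 shRNA neurons, against 49.7, 53.6, 57.2 and 51.7% signal in scrambled shRNA neurons. The groups were apart (0.23 ± 0.05, SE, limma adjusted p = 0.00822). With the mean of its probes the change was 0.10 and not called (adjusted p = 0.275), since the dimmer probe gave -0.04. Spike-in scaling ended its call too (0.31, adjusted p = 0.0601). Ephb2, known for its interaction with NMDA receptors at excitatory synapses, was dim, with 5.53, 6.68, 6.15 and 5.50% signal with Sirt6 shRNA and 3.98, 4.30, 4.74 and 3.07% signal with the scrambled control. Its Sirt6 shRNA values all lay above the scrambled ones (0.58 ± 0.13, SE, limma adjusted p = 0.0136). The other Ephb2 probe was well above background on 4 of 4 Sirt6 shRNA arrays and on 0 of 4 scrambled arrays. Its Sirt6 shRNA values ran from 3.168 to 4.885% signal and its scrambled values from 1.059 to 1.64% signal. The probe passed the filter through its Sirt6 shRNA arrays alone, so no test is given for it. The mean of both probes, 1.06, rests on that dim probe too. Ephb3, Ephb4 and Ephb6 were not called, with log2 fold changes from -0.16 to -0.09. The rn4 positions of the Epha8 and Ephb2 probes are 266 kb apart on chromosome 5, from 155694810 to 155694869 and from 155428639 to 155428698.

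The probes of the netrins themselves were dim or not well above background. The probes of Ntn1 and Ntn3, which encode secreted netrins, were well above background on 0 of 8 arrays. Ntn4 had 7.28, 4.62, 6.02 and 5.02% signal in Sirt6 shRNA neurons and 3.28, 5.71, 4.41 and 4.18% signal in scrambled shRNA neurons. Ntn4 was well above background on 4 of 4 arrays in each group. The groups overlapped, and the log2 fold change of 0.39 ± 0.19 was not called (SE, limma adjusted p = 0.167). Normexp gave 0.06. Ntn5 had 2.25, 3.22, 2.65 and 3.03% signal with Sirt6 shRNA, where 2 of 4 arrays were well above background, and 5.001, 3.27, 3.76 and 3.52% signal with the scrambled control, where 4 of 4 were. Its groups did not overlap, but the change of -0.47 ± 0.16 was not called (SE, limma adjusted p = 0.0529). It was called without Sirt6 shRNA replicate 2 (-0.55, adjusted p = 0.0458), with normexp (-0.16, 0.0260), with quantile normalization (-0.55, 0.0288) and with median centring (-0.52, 0.0378). Ntng1, which encodes the membrane-anchored netrin-G1 that binds the synaptic protein Lrrc4c and not Dcc, had 20.1, 17.7, 18.5 and 18.9% signal in Sirt6 shRNA neurons, against 14.9, 16.9, 17.2 and 15.8% signal in scrambled shRNA neurons. It was called higher (0.21 ± 0.06, SE, limma adjusted p = 0.0306) with groups apart.

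The Ntng1 call was lost without Sirt6 shRNA replicate 1, 3 or 4 (adjusted p = 0.0765, 0.0614 and 0.0656) and without scrambled shRNA replicate 1 or 4 (0.0635 and 0.0743). It was also lost under quantile normalization (0.0651), median centring (0.127), spike-in scaling (0.104), no filter (0.0611) and the mean of its probes (0.247). Its second probe gave 0.27 and was not called (adjusted p = 0.532). Ntng2, the other netrin-G, did not pass the filter: 2 of 4 Sirt6 shRNA arrays and 0 of 4 scrambled arrays were well above background. Its Sirt6 shRNA values ran from 0.636 to 13.4% signal and its scrambled values from 0.856 to 1.62% signal. As only 2 of 4 Sirt6 shRNA arrays were well above background, no fold change and no test are given for Ntng2.

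The netrin receptors Dcc and Neo1, close relatives in sequence, were called in opposite directions. Dcc, the receptor known for attraction to netrin-1, had 44.6, 30.4, 42.9 and 38.5% signal in Sirt6 shRNA neurons, against 30.3, 21.5, 26.3 and 24.0% signal in scrambled shRNA neurons. The arrays of both groups were spread widely, and the lowest Sirt6 shRNA array lay just above the highest scrambled one (0.61 ± 0.15 or 1.53-fold, SE, limma adjusted p = 0.0158). A second Dcc probe gave 0.26 and was not called (adjusted p = 0.540), and with the mean of the probes the call was lost (0.44, adjusted p = 0.0950). Neo1, which encodes neogenin, a receptor of netrins and of repulsive guidance molecules, had 298, 294, 276 and 278% signal with Sirt6 shRNA and 383, 395, 390 and 401% signal with the scrambled control. Its groups were far apart relative to their spread (-0.45 ± 0.04, SE, limma adjusted p = 0.000175), a 1.37-fold lower level with Sirt6 shRNA. The remaining Neo1 probes gave -0.56 (adjusted p = 0.00180) and -0.22, the second of which was not called (adjusted p = 0.0656). The brightest Neo1 probe lies at 62681749 to 62681808 on chromosome 8 of rn4, and the brightest Dcc probe at 68022614 to 68022673 on chromosome 18.

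The 4 Unc5 receptors, which take part in repulsion by netrin, were not called on their brightest probes. Unc5a gave -0.10, Unc5b 0.02, Unc5c 0.10 and Unc5d 0.08. The dimmer probes of Unc5b (-0.03) and Unc5c (-0.08) had the opposite sign and were not called. The third and dimmest Unc5d probe was called higher at 0.43 (adjusted p = 0.00627), with 11.8 to 13.6% signal in Sirt6 shRNA neurons and 8.46 to 10.8% signal in scrambled shRNA neurons, which did not overlap.

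**Figure D3:**
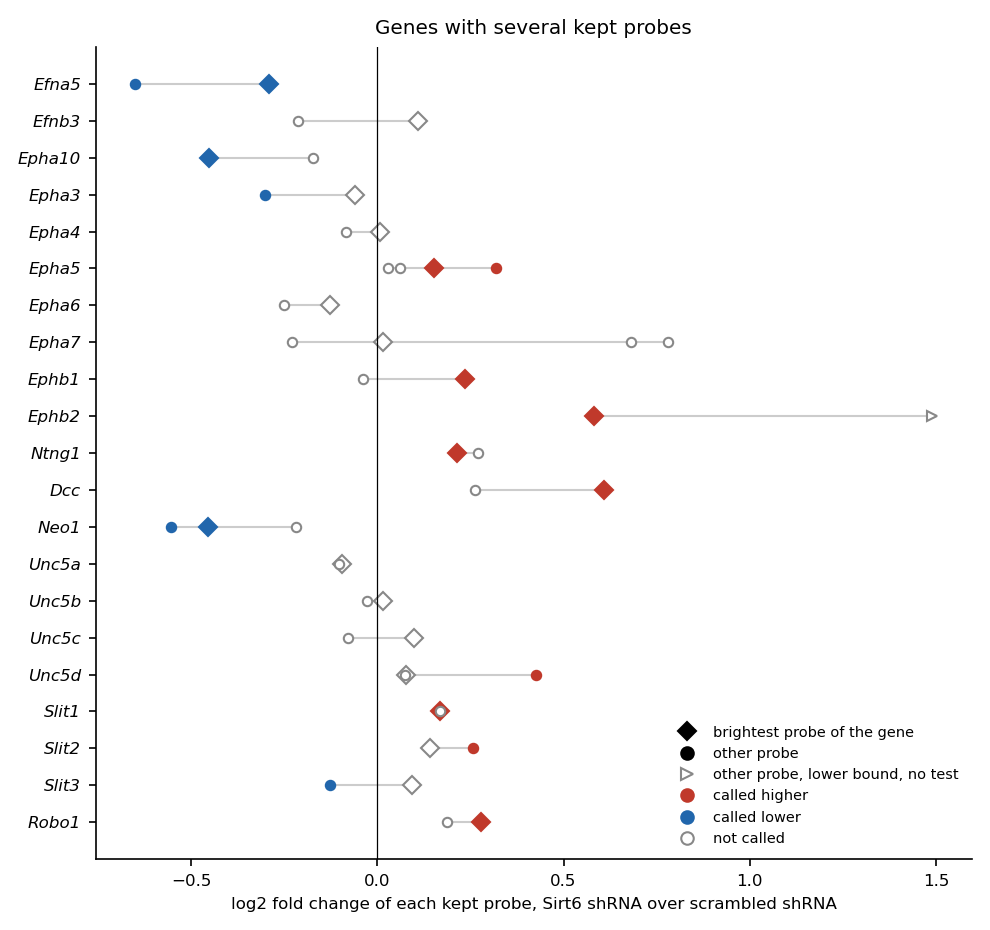
Log2 fold change of each kept probe for the 21 genes with several, with the brightest probe as a diamond, other probes as circles, filled where called. The arrowhead of Ephb2 has no test, since its scrambled arrays were not well above background. Labelled a lower bound, it sets the Sirt6 shRNA mean against the dimmest scrambled signals, which are not a firm limit of detection. No gene had probes called in opposite directions, and 12 had probes on both sides of the threshold.

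Across the 21 genes with several kept probes, 14 had all probes on the same side of 0. Efna5 had both of its probes called, and Ephb2 had its brightest probe called beside the one given no test. In 12 of the 21 some probes were called and others were not, and in 0 were probes called in opposite directions. Among all kept probes of the array, 28.4% were called.

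Of the 3 Slits, all measured, 1 was called, and it rose. Slit1, a secreted repellent expressed by neurons, had 535, 550, 561 and 564% signal in Sirt6 shRNA neurons, against 492, 497, 478 and 498% signal in scrambled shRNA neurons. The groups were apart and the change small (0.17 ± 0.03, SE, limma adjusted p = 0.00863). The call was lost with median centring (0.12, adjusted p = 0.0993), with spike-in scaling (0.24, adjusted p = 0.106) and with the mean of its probes (0.17, adjusted p = 0.0758). Its second probe gave the same 0.17 and was not called (adjusted p = 0.221). Slit2, the Slit best known for midline repulsion, had 67.5, 62.9, 60.9 and 67.6% signal with Sirt6 shRNA and 60.3, 57.0, 58.5 and 58.7% signal with the scrambled control. These groups did not overlap, and the adjusted p of 0.0501 missed the threshold (0.14 ± 0.05, SE, limma). Slit2 was called on its second probe (0.26, adjusted p = 0.0117), without Sirt6 shRNA replicate 3 (0.17, 0.0354), with normexp (0.12, 0.0260), with only probes above background on all 8 arrays (0.0438) and with the mean of its probes (0.20, 0.0205). Slit3 had 992, 1038, 888 and 977% signal in Sirt6 shRNA neurons and 986, 958, 862 and 847% signal in scrambled shRNA neurons, which overlapped (0.09 ± 0.07, SE, limma adjusted p = 0.348). Its second probe was called lower, at -0.13 (adjusted p = 0.0286).

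Of the Robo receptors, Robo1 rose, Robo2 and Robo4 were not called and Robo3 had no probe above the filter. Robo1, the Slit receptor widely expressed on axons, had 682, 695, 722 and 781% signal with Sirt6 shRNA, against 593, 574, 587 and 616% signal with the scrambled control. All Sirt6 shRNA arrays exceeded all scrambled ones (0.28 ± 0.05, SE, limma adjusted p = 0.00505). A dimmer second Robo1 probe gave 0.19 and was not called (adjusted p = 0.115). Robo2, its neighbour on chromosome 11 at 940 kb in rn4, had 10.4, 12.7, 12.2 and 12.8% signal in Sirt6 shRNA neurons and 13.5, 13.0, 13.7 and 11.8% signal in scrambled shRNA neurons. These overlapped (-0.11 ± 0.08, SE, limma adjusted p = 0.319), and the change was -0.05 without Sirt6 shRNA replicate 1. Robo4, known from blood vessels, gave 0.03 ± 0.04 (SE) and was not called.

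Unc50, a Golgi protein whose nematode counterpart acts in delivering acetylcholine receptors to the surface, had 193, 191, 196 and 197% signal in Sirt6 shRNA neurons, against 235, 230, 214 and 223% signal in scrambled shRNA neurons. It fell (-0.21 ± 0.04, SE, limma adjusted p = 0.00539), but with spike-in scaling it was not called (-0.14, adjusted p = 0.314). Unc5cl, represented by 3 probes, was well above background on 0 of 8 arrays.

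Genes that act beside these ligands and receptors moved in both directions. Of 19 partners of Eph and ephrin signalling, 3 were called higher and 1 lower (21.1%, median log2 fold change 0.03), against 30.4% of all genes with a median of 0.02. The 4 calls became 2 with median centring and 1 with spike-in scaling. Chn2, a chimaerin that switches off Rac, averaged 63.9 ± 6.1% signal in Sirt6 shRNA neurons and 47.7 ± 3.7% signal in scrambled shRNA neurons (SD, n = 4 each; 0.42 ± 0.08, SE, limma adjusted p = 0.00791), and gave 0.27 with the mean of its probes. Nck2, an adaptor of phosphorylated receptors, was 0.23 higher (adjusted p = 0.00753), a call lost with median centring (0.19, adjusted p = 0.0585) and spike-in scaling (0.30, adjusted p = 0.0743). Adam10, a protease that cleaves ephrins, was called lower at -0.22 (adjusted p = 0.00605), but not with spike-in scaling (-0.15, adjusted p = 0.255).

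Of 19 partners of netrin signalling, 17 were measured, 5 called higher and 6 lower. That is 64.7%, against 30.4% of all genes, with a median log2 fold change of -0.05. The list was chosen with earlier results of these data known, and the share was not tested. Ablim1 and Hjv were not measured. Dock1, a Rac activator downstream of Dcc, averaged 40.9 ± 2.3% signal with Sirt6 shRNA and 53.7 ± 2.4% signal with the scrambled control (SD, n = 4 each; -0.40 ± 0.05, SE, limma adjusted p = 0.00128). Spike-in scaling ended that call (-0.32, adjusted p = 0.0649), and normexp gave -0.25. Elmo1, which encodes a binding partner of the Dock1 protein, was called in the other direction at 0.32 (adjusted p = 0.0161), but not with median centring (0.27, adjusted p = 0.0526) or the mean of its probes (0.23, adjusted p = 0.211), and normexp gave 0.15. Trim67, a ubiquitin ligase that binds Dcc, was called at 0.57 (adjusted p = 0.0102) on a probe well above background on 2 of 4 arrays in each group, and not with normexp (0.02, adjusted p = 0.764). The 11 calls of this list became 3 with spike-in scaling, 6 with no filter and 7 with median centring. They numbered 7 without Sirt6 shRNA replicate 1, 6 without replicate 3, and 7 without scrambled shRNA replicate 2 or 4.

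Of the 18 partners of Slit and Robo signalling, all measured, 5 were called higher and 5 lower. That is 55.6%, against 30.4% of all genes, with a median log2 fold change of 0.08. Again the list was chosen with earlier results known, and its share was not tested. Myo9b, a myosin bound by Robo1, averaged 209 ± 18% signal in Sirt6 shRNA neurons and 294 ± 5.6% signal in scrambled shRNA neurons (SD, n = 4 each; -0.49 ± 0.06, SE, limma adjusted p = 0.000797). Srgap3, which encodes a protein bound by Robo receptors, was called lower at -0.45 (adjusted p = 0.00458). Sdc3, a heparan sulfate proteoglycan, was called lower at -0.23 (adjusted p = 0.0197), a call lost without Sirt6 shRNA replicate 3 (-0.21, 0.0551), without scrambled shRNA replicate 4 (-0.22, 0.0503), with no filter (0.0504) and with spike-in scaling (-0.15, 0.248), while normexp gave -0.11. The list's 10 calls became 2 with spike-in scaling, 4 with no filter and 5 with median centring. They numbered 6 without Sirt6 shRNA replicate 1, 5 without replicate 3, and 6 without scrambled shRNA replicate 2 or 4.

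**Figure D4:**
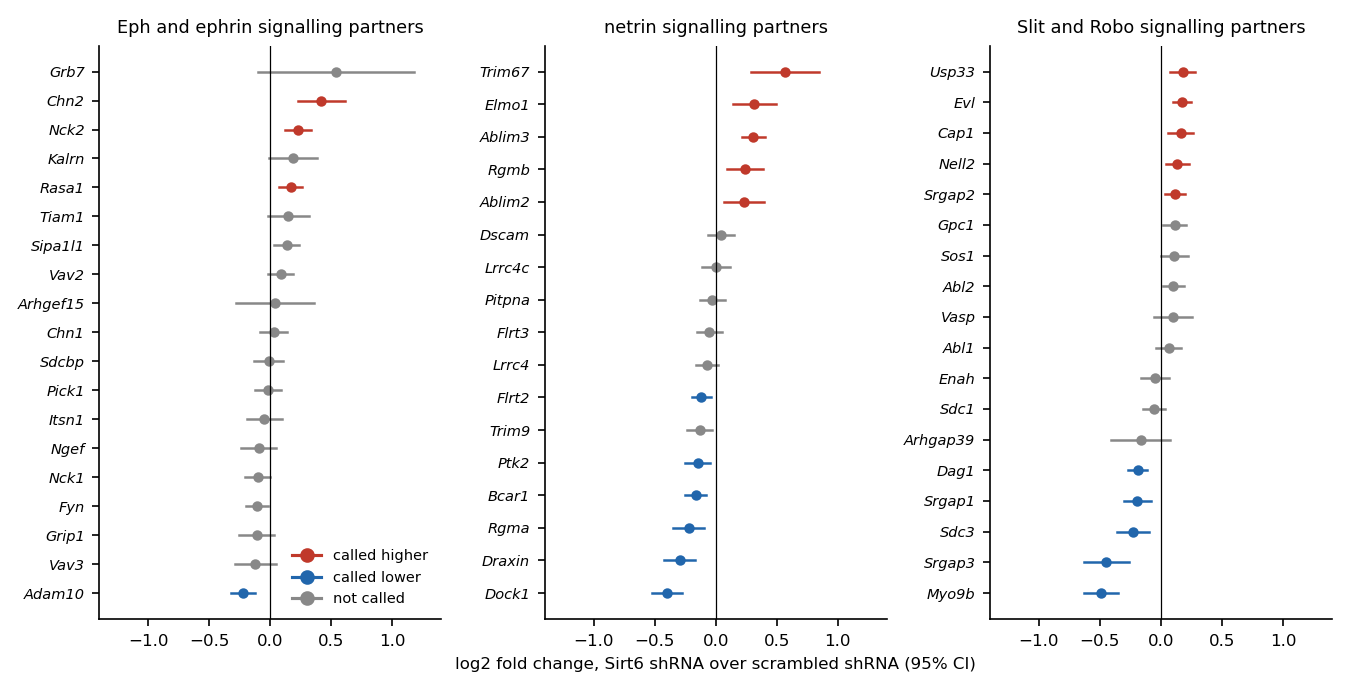
Log2 fold change with its 95% confidence interval for the measured genes of the 3 partner lists, 1 panel per list, ordered within each panel. Genes called higher number 3, 5 and 5 and genes called lower 1, 6 and 5 in the Eph and ephrin, netrin, and Slit and Robo panels.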

How the data were processed

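The intensity of each spot had been processed by the authors with Agilent Feature Extraction (version 11.5.1.1), according to their processing notes and per the file headers, which name background subtraction and detrending. The deposited files also flag outlier, saturated and well-above-background spots, per the file headers. The authors also deposited a table of log2 values. When compared with the array files, a column was the log2 signal shifted by 1 constant (SD of the difference at most 0.0029) and ran in the same direction, with column medians from -3.70 to -3.59.

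Outlier and control spots were left out, spots of a probe averaged, and log2 signals expressed relative to the array's own 75th percentile. Probes well above background on at least 4 of 8 arrays were kept (28620), and the brightest stood for its gene. Names were updated through a RefSeq table (GRCr8, names only): of the 74 member probes, 54 matched by systematic name, 2 by another accession and 18 by symbol. Groups, taken from the labels, were compared by limma's two-sided lmFit and eBayes test (limma 3.58.1, R 4.3.3). P-values were adjusted by Benjamini-Hochberg over 22593 genes, or over the 28620 kept probes for a probe that did not stand for its gene. The fit was tested on simulated data. A lower bound sets the bright group's mean against, per array, the higher of the lowest signal well above background and the probe's own. Coordinates of probes are those of rn4 in the files, and no exon or UTR annotation of that build was used here.

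Members and lists were chosen with earlier results of these data known. The genes named are every called member, the 2 of smallest p in role groups with under 2 called, members without a kept probe, probes whose call or sign differs from the gene's brightest, up to 3 called partners per list of largest change, and Sirt6. Alternatives were normexp with offset 50, quantile normalization, median and spike-in scaling, the authors' table, no filter, a filter on all 8 arrays, the mean of a gene's probes, every kept probe, a replicate block, and leaving out each array.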

Additional observations from a re-analysis of the deposited data

Results flagged for a closer look

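Within groups of 4 arrays, 4 of the 74 groups tested held an array far from the other three by Dixon's test at its 95% critical value, which chance alone does in about 1 in 20 groups. In 3 of these it was Sirt6 shRNA replicate 4. There Epha2 had 30.51% signal against 25.32 to 25.72 on the other Sirt6 shRNA arrays, Epha4 had 455.2 against 437.4 to 439.7, and Unc5b had 1074 against 918.9 to 943. Robo4 had 16.64% signal on scrambled shRNA replicate 1, against 15.35 to 15.44 on the other scrambled arrays. None of these 4 genes was called.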

How the results depend on the processing

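Values of 29 named genes were recomputed under 18 alternatives, and of the resulting comparisons 460 kept the direction and call, 49 lost the call, 10 gained one and 1 reversed: Efnb3 gave -0.0533 with the mean of its probes. Part of this agreement was fixed in advance. The authors' table holds the same signal at nearly the same scaling, and a changed filter leaves the brightest probe's log2 fold change as it was. With normexp, 7 members were called lower. Median centring left 6 members called higher, a member median of -0.0177, and 2, 7 and 5 calls in the Eph, netrin and Slit lists. Spike-in scaling left 3268 genes called in all, 6 members higher and 1 lower, a member median of 0.102, and 1, 3 and 2 calls in the lists. Without a filter the member median was 0.0669, with 6 netrin and 4 Slit list calls. The cause of these differences was not tested.

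Same-numbered arrays, which share a slide column, correlated at 0.0637, 0.16, 0.133 and 0.0329 in their deviations from the group means. As a pair fell below 0.1 and not every array correlated best with its own number, they were not treated as paired. With the replicate block, 8 members were called higher and 5 lower, and 6 partners in the Slit list. Of the named members called without it, Epha5 (adjusted p = 0.0655) and Ntng1 (0.0894) were not called with the block.

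Leaving out each array gave 5312 to 6590 called genes, 7 to 9 members higher, 4 to 5 lower, a member median of 0.0153 to 0.0443, and 3 to 5, 6 to 9 and 5 to 9 calls in the Eph, netrin and Slit lists. Low signal over background limits Ephb2, Ntn4, Ntn5, Ntng2, Trim67 and the second Efna5 probe.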
